A study of Mus musculus with 9 samples.

Results

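The 35 genes described here are the transcription factor p53 (gene Trp53) and 34 genes that p53 is known to switch on in mouse or human cells, taken as a fixed list of gene names. They were read on 55 probes, and all 35 were among the 16843 genes tested. Cdkn1a, the p53 target that encodes the cell cycle inhibitor p21, is outside the list and is given beside it. RNA came from the whole lung of 9 mice, 1 mouse per Agilent array labelled with Cy3, in 3 groups of 3 that the labels call biological replicates.

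All 9 mice carried 2 floxed copies of Terf1, the gene of the telomere protein TRF1, and all were given tamoxifen from the age of 8 weeks, 250 mg/kg each week. The control mice were TRF1flox/flox littermates without cre, given tamoxifen for 9 months and 11 months old at collection. The other 2 groups were SPC-creTRF1flox/flox mice given tamoxifen for 3 months (5 months old) or for 9 months (11 months old). The promoter of surfactant protein C drives cre in alveolar type 2 cells, so that only part of the cells in a whole lung could lose TRF1. In such bulk RNA fewer cells of a type and less RNA per cell cannot be told apart. The 3-month cre mice differed from the controls in genotype, age and length of tamoxifen at once, and no control of their own age was analysed here.

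p53 is kept low in resting cells because MDM2, itself a p53 product, marks it for destruction. When telomeres lose their cap the exposed ends are read as DNA breaks, kinases such as ATM and ATR free p53 from MDM2, and p53 then turns on genes that stop the cell cycle, promote apoptosis, aid DNA repair or signal to other cells. Much of this control acts on the p53 protein, so the mRNA of Trp53 is not a measure of its activity. In lung epithelium this response is known for its part in senescence and in loss of alveolar type 2 cells.

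p53 binds a pair of adjoining half-sites of 10 bases each, known as the p53 response element. Promoters of 27 of the 35 genes, 36 sequences of 300 bases from 250 before to 50 after a start site, were found in the RefSeq table of GRCm38.p6. Those of Ddb2, Perp, Pmaip1, Rrm2b, Tnfrsf10b, Trp53inp1, Xpc and Zmat3 are not given. A full element with at most 3 mismatches of 20, on either strand, was present in 12 of the 36 (33.3%) and in 2067 of all 32851 promoters of that length (6.29%). A half-site with 0 mismatches was present in 12 of the 36 (33.3%) and in 2745 of 32851 (8.36%). The full elements fell at 12 distinct places in 11 genes. A match is a description of letters and not a measured site, and the genes were on the list because they are known p53 targets. The 6 windows below are shown because they hold the elements with the fewest mismatches, or belong to the apoptosis genes Bax and Bbc3, and each reads 5′ to 3′ on the gene's strand with the 20 bases of the element in capitals.
Rps27l, chr9:66946286-66946325, plus strand, 1 mismatch, from -117: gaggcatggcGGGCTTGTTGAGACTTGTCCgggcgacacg
Ccng1, chr11:40755452-40755491, minus strand, 1 mismatch, from -195: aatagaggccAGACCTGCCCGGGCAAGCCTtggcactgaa
Gtse1, chr15:85859935-85859974, plus strand, 1 mismatch, from -1: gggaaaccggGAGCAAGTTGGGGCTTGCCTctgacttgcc
Cd80, chr16:38458812-38458851, plus strand, 2 mismatches, from -111: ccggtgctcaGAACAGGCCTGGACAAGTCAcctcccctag
Bax, chr7:45467080-45467119, minus strand, 3 mismatches, from -211: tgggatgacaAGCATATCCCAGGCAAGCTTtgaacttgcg
Bbc3, chr7:16309476-16309515, plus strand, 3 mismatches, from -97: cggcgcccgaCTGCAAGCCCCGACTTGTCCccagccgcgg

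The whole promoter of Rps27l that holds this element, chr9:66946163-66946462, is printed because Rps27l is the only gene with a full element among the 6 that were called at 9 months and have a promoter here. The element is in capitals.
Rps27l: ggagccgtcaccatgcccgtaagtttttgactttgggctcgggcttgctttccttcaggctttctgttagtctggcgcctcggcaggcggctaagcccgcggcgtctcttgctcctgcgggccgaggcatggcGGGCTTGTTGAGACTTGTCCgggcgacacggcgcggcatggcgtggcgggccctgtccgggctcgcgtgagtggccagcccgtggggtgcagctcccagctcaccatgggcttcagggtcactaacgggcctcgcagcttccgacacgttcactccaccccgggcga
The promoter of Gdf15 at chr8:70632407-70632706, minus strand, belongs to the gene with the largest change, and no full element or 0-mismatch half-site was found in it.
Gdf15: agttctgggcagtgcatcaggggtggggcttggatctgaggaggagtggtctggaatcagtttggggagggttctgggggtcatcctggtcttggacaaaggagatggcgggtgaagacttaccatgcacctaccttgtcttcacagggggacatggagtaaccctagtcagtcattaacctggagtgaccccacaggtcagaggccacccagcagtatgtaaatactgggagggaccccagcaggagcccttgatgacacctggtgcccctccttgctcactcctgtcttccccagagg
No full element was found in the windows of Fas, Phlda3, Psrc1 or Pltp either, and nothing follows from that about binding elsewhere in these genes.

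Levels are log2 intensity relative to the 75th percentile of the probes of the same array, and differences are log2 fold changes of limma with their standard error (SE), from 3 arrays against 3 unless stated. A gene is called at an adjusted p under 0.05 over all 16843 genes. Terf1 levels were -0.37, -0.05 and 0.20 in controls, -0.58, -0.68 and -0.62 in 3-month cre lungs and -0.41, -0.97 and -0.39 in 9-month cre lungs. Against control, limma gave -0.52 ± 0.19 for the 9-month lungs (adjusted p = 0.131), and -0.55 ± 0.19 for the 3-month lungs (adjusted p = 0.190), neither called. No source used here says whether the Terf1 probe lies inside the floxed part, so that this is a weak check of the labels. All 10 alveolar type 2 markers, Sftpc among them, were well above background on all 9 arrays. Each of the 35 genes was well above background on every array on its tested probe. Between 64.4% and 73.66% of spots per array, the array's own control spots aside, were well above background, and none of these spots was saturated.

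The array headers name 2 slides that follow the groups. The 3 controls shared slide 1 with replicate 1 of the 3-month cre group, and the other 5 arrays were on slide 2. The Y-linked genes placed the 3 controls, 3-month cre replicate 2 and 9-month cre replicate 1 among males, at levels from -2.28 to 1.51, and the other 4 arrays at -7.30 or lower. Slide and sex therefore differ between control and cre lungs, and their part in the results below was not tested apart from the fits that carry them as terms.

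After 9 months of tamoxifen 6 of the 35 genes rose in cre lungs against control lungs and 1 fell. The 6 were Gdf15, Psrc1, Pmaip1, Fas, Rps27l and Phlda3, and the gene that fell was Pltp. Over all genes 3.65% were called higher and 2.81% lower, against 6 of 35 and 1 of 35 here. The median log2 fold change was 0.24 for the 35 genes and 0.02 for all genes, with 24 of the 35 above 0 (52.8% of all genes). At unadjusted p under 0.05 limma had 16 of the 35 higher and 3 lower, beside 14.8% and 12.5% of all genes. In 16 genes every 9-month cre array lay above every control array, and in 3 every one lay below, where 17.5% and 15% of all genes did so. By role the medians were 0.74 for the 6 growth arrest genes, 0.60 for the 5 receptors and surface ligands, 0.25 for the 4 genes that act on p53 signalling, 0.16 for the 8 genes of mitochondrial apoptosis, 0.08 for the 6 of metabolism and secretion and -0.24 for the 5 of DNA repair. Where the slide was a fixed block, joined through the 3-month cre arrays, limma called 0 of the 35 and 0 of all genes, with 5 and 837 at unadjusted p under 0.05, the median was 0.31 and the 7 genes kept their signs. With sex as a covariate limma called 0 of the 35 and 0 of all 16843 genes, with 13 and 3711 at unadjusted p under 0.05. The median was then 0.35 for the 35 genes and 0.04 for all genes.

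**Figure D1:**
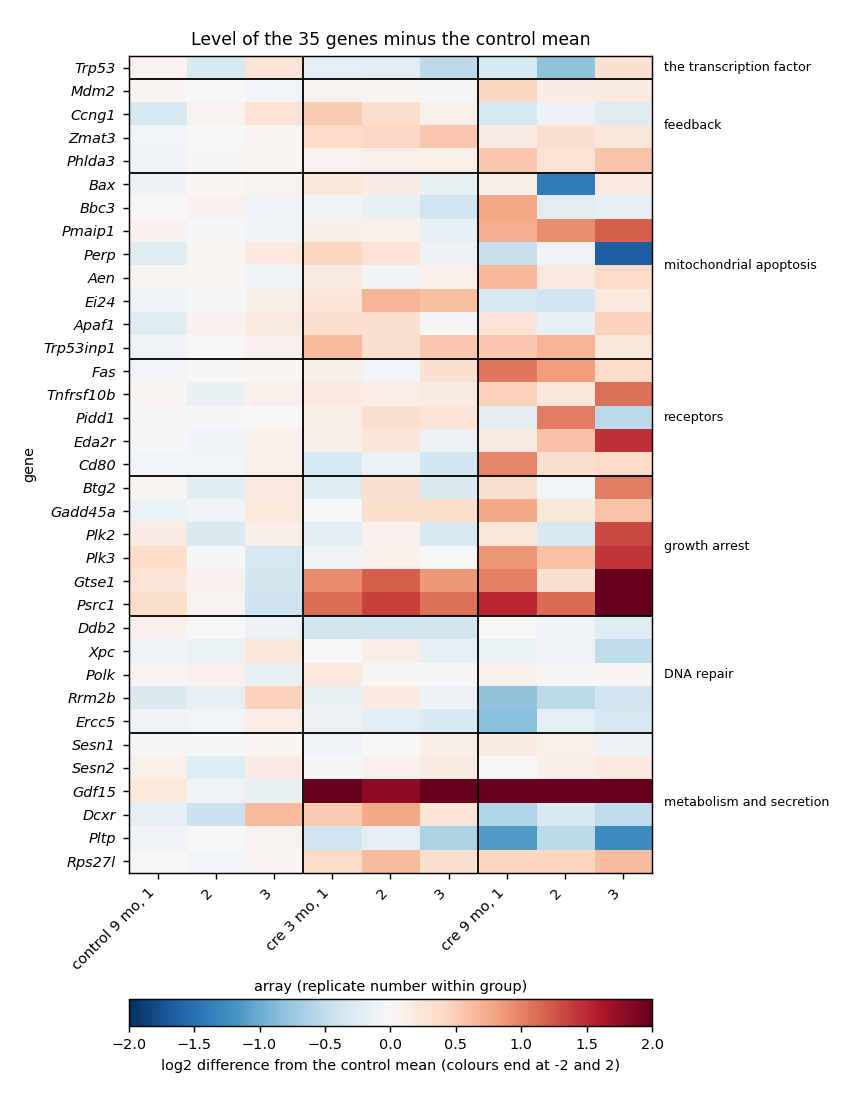
Difference of each of the 35 genes (rows, grouped by role) on each of the 9 arrays (columns) from the mean of the 3 control arrays, on the log2 scale, with colours ending at -2 and 2. Gdf15 is high on all 6 cre arrays, Pltp is low on all 3 of the 9-month cre arrays, and 5 of the 6 growth arrest genes are highest on 9-month cre replicate 3.

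At 3 months 1 of the 35 genes rose, Gdf15, and 0 fell, beside 0.368% of all genes called higher and 0.0831% lower. At unadjusted p under 0.05 limma had 6 higher and 1 lower, beside 11.6% and 7.09% of all genes. The median was 0.08 for the 35 genes and 0.05 for all genes, with 25 of the 35 above 0 (57.6% of all genes). In 10 genes every 3-month cre array lay above every control array and in 4 below, where 19.6% and 11.4% of all genes did so. Between the 9-month and 3-month cre lungs 2 genes were higher at 9 months, Pmaip1 and Cd80, and 0 lower, beside 1.79% and 3.20% of all genes. At unadjusted p under 0.05 limma had 9 higher and 6 lower, beside 12.7% and 16% of all genes, and 9 genes lay wholly above and 5 wholly below the 3-month arrays, where 14.6% and 19% of all genes did so. Here the medians were 0.06 and -0.03, with 22 of the 35 above 0 (46.9% of all genes), and the median of the 35 turned to -0.01 when arrays were scaled to their median. Controls enter both comparisons with cre lungs, and the 9-month cre arrays enter both comparisons at 9 months, so the 3 sets of values share arrays. On single arrays the median difference of the 35 genes from the control mean was 0.11, 0.15 and -0.01 in the 3-month cre lungs and 0.24, 0.12 and 0.23 in the 9-month cre lungs. Of the 35 genes 20, 20 and 15 stood above all controls on the 3-month arrays and 23, 18 and 23 on the 9-month arrays. Of all genes 36%, 41.7% and 34.4% did so on the 3-month arrays and 40.6%, 35.3% and 36.6% on the 9-month arrays, in the same order.

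**Figure D2:**
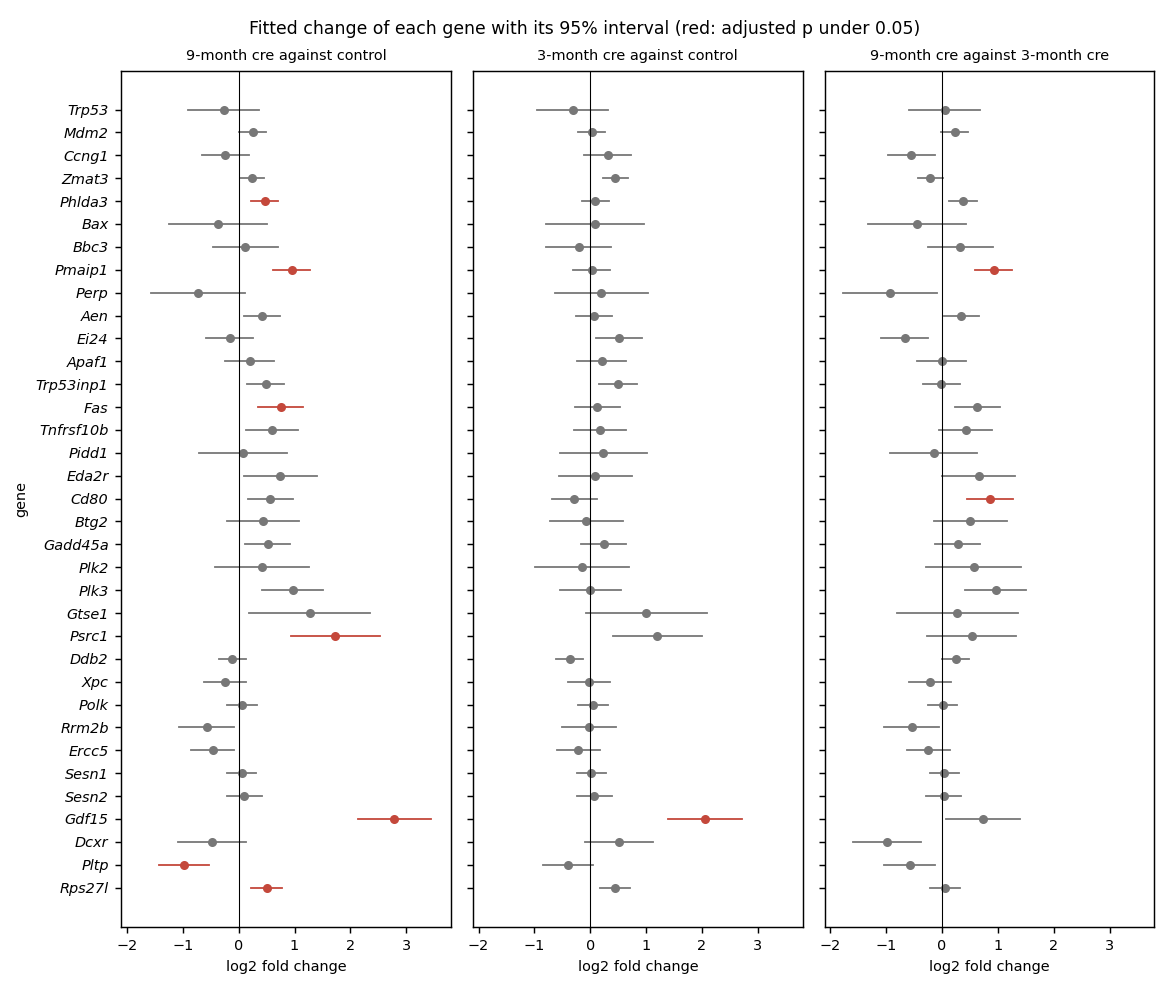
Fitted log2 fold change of each of the 35 genes (points) with its 95% interval (bars) in the 3 comparisons, red where the limma adjusted p over all genes was under 0.05. Gdf15 stands farthest right against control at both times, 7 genes are red at 9 months, 1 at 3 months and 2 between the cre groups.

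Gdf15 encodes a secreted stress cytokine of the TGF-beta family and had the largest difference. Its levels were -1.21, -1.50 and -1.57 in controls, 0.57, 0.36 and 0.96 at 3 months of cre and 1.83, 0.70 and 1.56 at 9 months. No cre array overlapped the controls, and the 2 cre groups overlapped each other through 9-month replicate 2. Gdf15 rose 6.89-fold at 9 months, by 2.78 ± 0.29 on the log2 scale (limma adjusted p = 0.00897), and 4.15-fold at 3 months, by 2.05 ± 0.29 (adjusted p = 0.0339). Between the 9-month and 3-month lungs the 0.73 ± 0.29 was not called (adjusted p = 0.140). The 9-month call held with each of the 9 arrays left out in turn (adjusted p up to 0.0385) and was lost with the slide as a fixed block, at 2.70 ± 0.55 (adjusted p = 0.923), and with sex as a covariate, at 2.88 ± 0.37 (adjusted p = 0.0520). The 3-month call was lost without any single control or 3-month cre array (1.89 to 2.19 over all 9 omissions, adjusted p up to 0.147), and within slide 1, where 1 cre array assumed to vary like the controls met 3 controls, the value was 2.00 ± 0.20 (adjusted p = 0.296).

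Gdf15 is also made by macrophages, and macrophage markers were counted for the same lungs. Of all genes 3.65% were called higher at 9 months and 0.368% at 3 months, and 3.20% were called lower between the cre groups. Of 14 monocyte and interstitial macrophage markers 5 rose at 9 months and 3 at 3 months, and their summed level was 7.89 to 7.99 in controls, 8.19 to 8.36 at 3 months and 8.49 to 8.77 at 9 months, with all 14 above background on every array. Of 10 alveolar macrophage markers 3 rose at each time, with summed levels of 6.71 to 7.57, 8.04 to 8.26 and 7.63 to 8.28. At 9 months against control 7 of the 10 were above 0. Between the cre groups their median was -0.34, with 1 of 10 above 0 and 1 called lower, where Gdf15 stood at 0.73 ± 0.29. The part of these cells in the Gdf15 values was not tested.

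**Figure D3:**
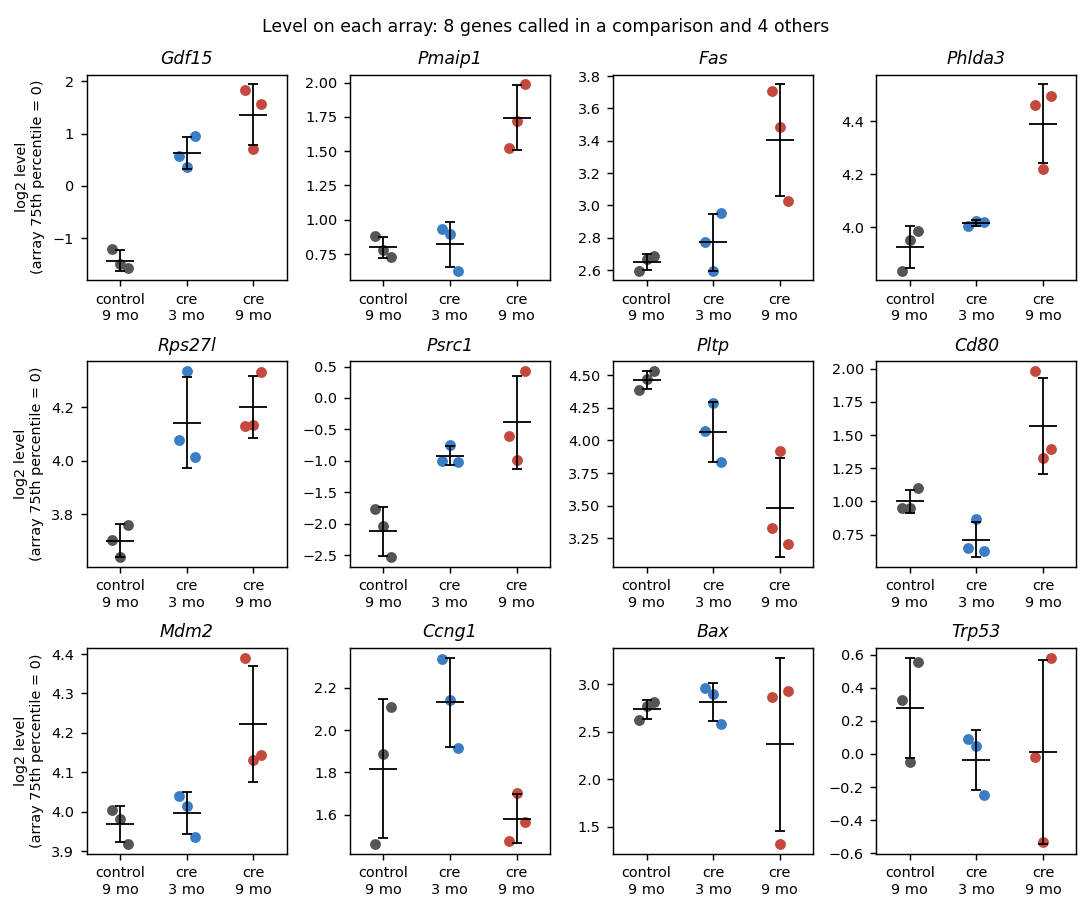
Level of 12 genes on each array (points, log2 intensity relative to the array 75th percentile) by group, with the group mean and SD (bars, n = 3). The panels show the 8 genes called in any comparison and 4 others, Mdm2, Ccng1, Bax and Trp53. Among these 4, Bax and Trp53 spread most within the 9-month cre group.

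Among the other genes of metabolism and secretion, Rps27l encodes a ribosomal protein that binds MDM2. It stood at 3.70, 3.64 and 3.76 in controls, 4.08, 4.34 and 4.01 at 3 months and 4.13, 4.13 and 4.33 at 9 months, so that both cre groups lay above the controls and overlapped each other. It rose by 0.50 ± 0.12 at 9 months (limma adjusted p = 0.0469), while the 3-month value of 0.44 ± 0.12 was not called (adjusted p = 0.129). A second Rps27l probe read 0.67 ± 0.15 and 0.75 ± 0.15, neither called in the fit over all 37647 probes. The 9-month call was lost with any of the 9 arrays left out (0.43 to 0.53, adjusted p 0.0525 to 0.142).

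Pltp, the phospholipid transfer protein, which moves phospholipids between lipoproteins and is made in alveolar type 2 cells, was the only gene of the 35 that fell. Control levels were 4.39, 4.47 and 4.53, 3-month cre levels 4.07, 4.29 and 3.83, and 9-month cre levels 3.33, 3.92 and 3.21. All cre arrays lay below all controls, and 9-month replicate 2 lay within the 3-month range. The 9-month difference was -0.98 ± 0.20 (limma adjusted p = 0.0306), and the 3-month difference of -0.40 ± 0.20 was not called (adjusted p = 0.314). The call was lost without any single control or without 9-month cre replicate 1 or 3 (-1.20 to -0.84 over all 9 omissions, adjusted p up to 0.0966). Of the 10 alveolar type 2 markers 1 fell at 9 months, Etv5 (-0.87 ± 0.16, limma adjusted p = 0.0232), with a list median of -0.29 and 4 of 10 above 0. Etv5 and Slc34a2 also fell between the cre groups, by 0.91 ± 0.16 and 1.99 ± 0.25 (limma adjusted p = 0.0305 and 0.0201). Of all genes 2.81% were called lower at 9 months against control and 3.20% between the cre groups. The summed level of the list, in which the brightest probes weigh most, was 9.36 to 9.58 in controls, 9.50 to 9.96 at 3 months and 9.60 to 9.98 at 9 months. The part of these cells in the Pltp value was not tested.

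Dcxr, a carbonyl reductase of the uronate cycle, was higher than control at 3 months (0.51 ± 0.27) and lower at 9 months (-0.47 ± 0.26), and neither value was called. Between the cre groups the value of -0.99 ± 0.26 missed the threshold (limma adjusted p = 0.0631), and all 3 of the 9-month arrays lay below the 3-month arrays. The sestrins Sesn1 and Sesn2, which restrain mTORC1 and limit oxidative stress, lay between 0.01 and 0.10 in all 3 comparisons. Their 95% intervals at 9 months ran from -0.21 to 0.32 and from -0.21 to 0.41.

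Pmaip1 encodes NOXA, a BH3-only protein that neutralises MCL1 at the mitochondrion. Its levels were 0.88, 0.78 and 0.73 in controls, 0.93, 0.90 and 0.63 at 3 months, and 1.52, 1.72 and 1.99 at 9 months. The 3-month arrays spanned the control range and the 9-month arrays lay above both groups. Pmaip1 rose at 9 months by 0.95 ± 0.14 against controls (limma adjusted p = 0.0170) and by 0.93 ± 0.14 against 3-month cre lungs (adjusted p = 0.0264), with 0.02 ± 0.14 at 3 months (adjusted p = 0.953). The call against controls was lost without control replicate 2 (adjusted p = 0.0620), and the call between the cre groups was lost without any single 3-month cre array (adjusted p up to 0.108). Within slide 2, which holds 3 of the 9-month and 2 of the 3-month cre arrays, the difference was 0.98 ± 0.20 (adjusted p = 0.172).

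Bax, the pore-forming effector of mitochondrial apoptosis, was at 2.62, 2.78 and 2.81 in controls, 2.96, 2.91 and 2.59 at 3 months and 2.87, 1.32 and 2.93 at 9 months. The array of 9-month replicate 2 stood apart from the other 8, and the second Bax probe was lowest on the same array, at -1.67 against -0.56 to 0.46 on the others. On the tested probe the 9-month difference of -0.37 ± 0.38 was not called (limma adjusted p = 0.559) and became 0.16 without that array. The second probe read -0.55 ± 0.34 at 9 months and was not called. On it 9-month replicate 1, at -0.56, also lay below the controls (-0.40 to -0.09). Perp, a membrane protein of desmosomes and apoptosis, was low on a single array, 9-month replicate 3, at 0.87 against 2.06 to 2.94 on the other 8. Its difference between the cre groups, -0.93 ± 0.37, was not called (adjusted p = 0.141).

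Ei24, an endoplasmic reticulum protein, was higher than control at 3 months (0.51 ± 0.18, adjusted p = 0.195) and lower in 9-month than in 3-month cre lungs (-0.67 ± 0.18, limma adjusted p = 0.0629), neither called. A dimmer probe of Ei24 read -1.22 ± 0.27 between the cre groups and was called in the fit over probes (adjusted p = 0.0417). Aen, an exonuclease, Bbc3, the BH3-only protein PUMA, Apaf1, the core of the apoptosome, and Trp53inp1, a stress protein that promotes autophagy and death, lay between 0.12 and 0.48 at 9 months and between -0.21 and 0.49 at 3 months, with 0 of the 4 called. The 2 Apaf1 probes differed in sign at 9 months (0.20 and -0.16) and at 3 months (0.20 and -0.63).

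Of the receptors and surface ligands, Fas, the death receptor of the TNF family, was at 2.60, 2.67 and 2.69 in controls, 2.77, 2.60 and 2.95 at 3 months and 3.71, 3.48 and 3.03 at 9 months. The 9-month arrays lay above both other groups. The 9-month rise was 0.75 ± 0.18 (limma adjusted p = 0.0442), and 9-month exceeded 3-month cre lungs by 0.63 ± 0.18, which was not called (adjusted p = 0.0670). A second Fas probe, for another transcript, stood at 0.06 ± 0.29, and with the mean of both probes Fas was not called (adjusted p = 0.172). With 1 array left out the call held only without 9-month cre replicate 3 (0.60 to 0.94 over all 9 omissions, adjusted p 0.0177 to 0.122).

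Cd80, the costimulatory ligand of CD28 and CTLA4 on antigen-presenting cells, was at 0.95, 0.95 and 1.10 in controls, 0.65, 0.87 and 0.62 at 3 months and 1.98, 1.33 and 1.40 at 9 months. On this tested probe the 3 groups did not overlap: 3-month cre lungs were lowest and 9-month cre lungs highest. Cd80 rose between the cre groups by 0.86 ± 0.18 (limma adjusted p = 0.0403), while 0.57 ± 0.18 against controls at 9 months was not called (adjusted p = 0.0884). The 2 dimmer Cd80 probes read 1.55 ± 0.30 (adjusted p = 0.0350) and 1.19 ± 0.25 (adjusted p = 0.0447) against controls in the fit over probes, both called, and 1 of them was not well above background on 1 control array. On the tested probe the call between the cre groups held without control replicate 3, 9-month replicate 2 or 9-month replicate 3, and was lost without any other array (0.65 to 0.98, adjusted p up to 0.135). The summed level of the monocyte and interstitial macrophage markers, given above with Gdf15, was also highest in the 9-month group. Within that group the sum was lowest on replicate 1, at 8.49, where the tested Cd80 probe was highest. The 2 dimmer probes were highest on replicate 3 (-2.90 and -3.28), where the sum was highest, at 8.77. At 3 months the sum lay above the controls. Cd80 lay below them on the tested probe (-0.29 ± 0.18). The 2 dimmer probes read 0.22 ± 0.30 and 0.30 ± 0.25 against control at 3 months, neither called. The alveolar macrophage markers had a median of 0.56 at 9 months and 0.94 at 3 months against control, and -0.34 between the cre groups with 1 of 10 called lower. The part of these cells in the Cd80 values was not tested.

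Tnfrsf10b, a receptor of the death ligand TRAIL, Eda2r, a receptor of ectodysplasin A2, and Pidd1, the scaffold that activates caspase-2, lay between 0.08 and 0.74 at 9 months with 0 of the 3 called. Pidd1 was highest on 9-month replicate 2 (0.37) and lowest on replicates 1 and 3 of the same group (-0.89 and -1.19), and its 2 probes differed in sign at 3 months (0.23 and -0.18) and between the cre groups (-0.15 and 0.40).

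**Figure D4:**
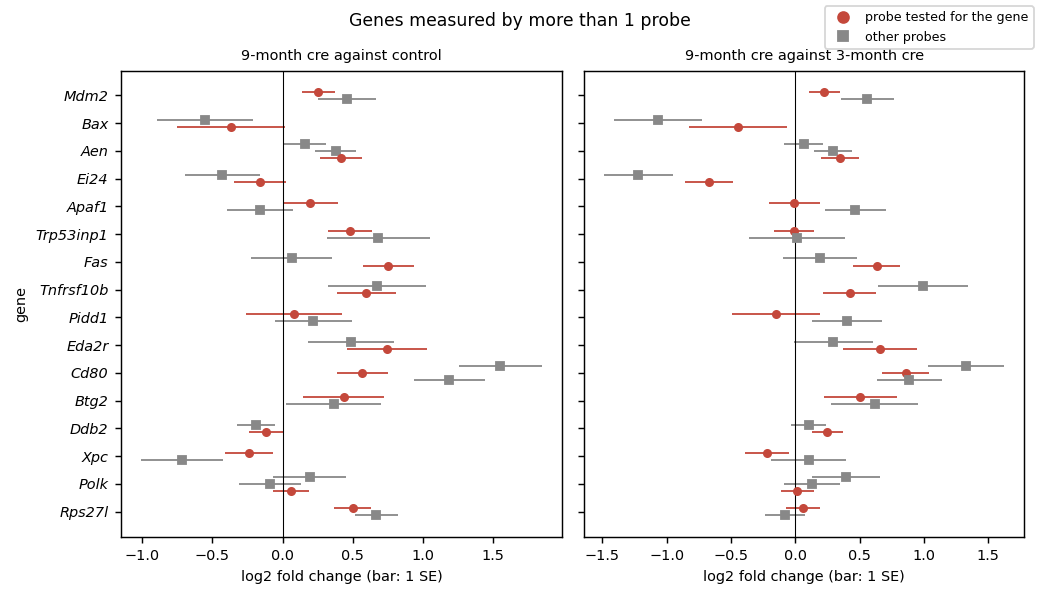
Log2 fold change (x axis, bars 1 SE) of every probe that passed the filter, for the genes of the list with more than 1 probe (rows), in 2 comparisons; red circles mark the probe tested for the gene. The other Cd80 probes lie to the right of the tested one at 9 months against control, and the other Fas probe lies near 0.

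The growth arrest genes had the highest median of any role at 9 months against control. Psrc1, a microtubule-binding protein of the mitotic spindle, was at -1.77, -2.04 and -2.54 in controls, -0.997, -0.75 and -1.01 at 3 months and -0.61, -0.99 and 0.43 at 9 months. Every cre array lay above every control, and 9-month replicate 3 was highest. Psrc1 rose 3.31-fold at 9 months, by 1.73 ± 0.35 on the log2 scale (limma adjusted p = 0.0302), and its 3-month value of 1.20 ± 0.35 was not called (adjusted p = 0.140). The call was lost without any single control, without 3-month cre replicate 2 or without 9-month cre replicate 1 (1.32 to 2.03 over all omissions, adjusted p up to 0.0899).

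Gtse1, a microtubule-associated protein that shuttles p53 out of the nucleus, stood 1.27 ± 0.47 above control at 9 months (limma adjusted p = 0.129) and 1.00 ± 0.47 above it at 3 months (adjusted p = 0.293), neither called. It had the widest spread within groups of the 35 genes, a pooled SD of 0.67, where Zmat3 had the narrowest at 0.07. On 9-month replicate 3 Gtse1 stood at -1.47, against -3.63 and -2.95 on the other 2 arrays of the group. Psrc1 and Gtse1 are also made in dividing cells. At 9 months limma called 0 of 20 proliferation genes, with 1 at unadjusted p under 0.05, beside 4603 of all 16843 genes. Their median was 0.95 and each of the 20 lay above 0 (52.8% of all genes), with Mki67 at 1.28 ± 0.58 and Ccna2 at 1.27 ± 0.62. Their summed level was 2.99 to 3.53 in controls, 3.89 to 4.25 at 3 months and 3.84, 3.28 and 5.67 at 9 months, highest on the same replicate 3. Without that array the 9-month values were 1.32 for Psrc1, the lowest of all omissions and still called, and 0.67 for Gtse1. The part of dividing cells in both was not tested.

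Plk3, a stress-activated polo-like kinase, lay just outside the threshold. The 9-month values were 0.97 ± 0.24 against controls (limma adjusted p = 0.0502) and 0.96 ± 0.24 against 3-month cre lungs (adjusted p = 0.0540), and the 3-month value was 0.00 ± 0.24 (adjusted p = 0.998). Its 9-month arrays lay above both other groups. Btg2, an antiproliferative partner of the CCR4-NOT deadenylase, Gadd45a, a stress sensor that acts on cell cycle kinases, and Plk2, another polo-like kinase, lay between 0.42 and 0.52 at 9 months and between -0.15 and 0.24 at 3 months, with 0 of the 3 called.

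The genes that act on p53 signalling itself gave 1 call. Phlda3 encodes a small PH-domain protein that keeps AKT off the membrane. Its levels were 3.84, 3.95 and 3.99 in controls, 4.004, 4.02 and 4.02 at 3 months and 4.46, 4.22 and 4.49 at 9 months, with the 9-month arrays above both other groups. It rose by 0.47 ± 0.11 at 9 months (limma adjusted p = 0.0421), with 0.09 ± 0.11 at 3 months (adjusted p = 0.679) and 0.38 ± 0.11 between the cre groups (adjusted p = 0.0690). With 1 array left out the call held only without 9-month cre replicate 2 (0.41 to 0.55 over all 9 omissions, adjusted p 0.0219 to 0.119).

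Mdm2, the ubiquitin ligase that degrades p53, was at 4.005, 3.98 and 3.92 in controls, 4.04, 4.01 and 3.94 at 3 months and 4.39, 4.13 and 4.14 at 9 months. The 9-month arrays lay above both other groups, by 0.25 ± 0.10 against controls, which was not called (limma adjusted p = 0.164), with a 95% interval from 0.01 to 0.49. A second Mdm2 probe read 0.46 ± 0.21 (adjusted p = 0.215). Ccng1, cyclin G1, which steers a phosphatase to MDM2, was at 1.46, 1.89 and 2.11 in controls, 2.34, 2.14 and 1.91 at 3 months and 1.47, 1.70 and 1.57 at 9 months. All 9-month arrays lay below all 3-month arrays and within the control range, and the difference between the cre groups, -0.55 ± 0.18, was not called (adjusted p = 0.0974). Zmat3, an RNA-binding zinc finger protein, was above control on every cre array (0.24 ± 0.10 at 9 months and 0.45 ± 0.10 at 3 months) and was not called (limma adjusted p = 0.156 and 0.0925).

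Trp53 itself was at 0.33, -0.05 and 0.56 in controls, 0.09, 0.05 and -0.25 at 3 months and -0.02, -0.53 and 0.58 at 9 months. The 3 groups overlapped. Against control the 9-month value was -0.27 ± 0.28 (limma adjusted p = 0.552), the 3-month value was -0.31 ± 0.28 (adjusted p = 0.567), and their 95% intervals, -0.90 to 0.36 and -0.95 to 0.32, allow a change of either sign.

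The DNA repair genes were, Trp53 itself apart, the only role with a negative median at 9 months, and 0 of the 5 were called. Rrm2b, the p53-inducible ribonucleotide reductase subunit, and Ercc5, the XPG endonuclease of nucleotide excision repair, were lower on every 9-month cre array than on any control, by 0.57 ± 0.21 (limma adjusted p = 0.129) and 0.46 ± 0.17 (adjusted p = 0.125) on the log2 scale. Ddb2, which recognises ultraviolet damage, and Xpc, which does so for nucleotide excision repair at large, stood at -0.12 and -0.24, and the translesion polymerase Polk at 0.06. A dimmer Xpc probe read -0.72 ± 0.29 at 9 months and 0.10 between the cre groups, where the tested probe read -0.22, and a further Polk probe read -0.09 at 9 months. On the tested probes the 3-month values of the role ran from -0.37 for Ddb2 to 0.05. The dimmer Xpc probe read -0.82 ± 0.29 at 3 months, where the tested one read -0.02.

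Beyond the list, Cdkn1a rose at 9 months by 2.08 ± 0.32 against controls (limma adjusted p = 0.0164) and by 1.49 ± 0.32 against 3-month cre lungs (adjusted p = 0.0417). Its levels were 0.43, 0.20 and 1.13 in controls, 1.17, 1.09 and 1.27 at 3 months and 3.28, 2.61 and 2.12 at 9 months. Of 22 further p53 targets, Cdkn1a among them, 3 rose and 0 fell at 9 months, and Casp1, the inflammasome caspase, was another of the 3 (0.91 ± 0.17, limma adjusted p = 0.0237). The median of the 22 was 0.06, with 11 above 0. Of all genes 3.65% were called higher at 9 months, 2.81% were called lower and 52.8% lay above 0. At 3 months limma called 0 of the 22, with 4 at unadjusted p under 0.05, beside 3155 of all 16843 genes. Of 23 measured regulators of p53, 0 were called in any comparison, with a median of -0.01 at 9 months. Among them at 9 months were the kinase Atm (-0.58 ± 0.15, limma adjusted p = 0.0539) and the p53 inhibitor Mdm4 (0.06 ± 0.24). At unadjusted p under 0.05 limma had 4 of the 23 at 9 months, 4 at 3 months and 9 between the cre groups. Of all 16843 genes 4603, 3155 and 4839 passed in the same order.

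**Figure D5:**
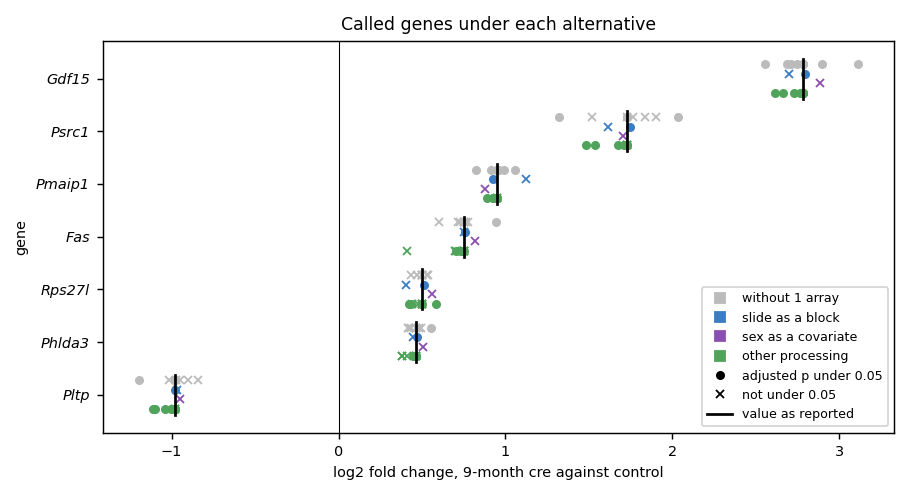
Log2 fold change (x axis) of the 7 genes called at 9 months against control, under each alternative (circles where the limma adjusted p stayed under 0.05, crosses where it did not) and as reported (black bars). Every point keeps the sign of the reported value, and the Gdf15 points lie between 2.55 and 3.11.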

How the data were processed

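Each of the 9 arrays has a scanner file with the intensity of every spot. Per the file headers these come from Agilent Feature Extraction, version 10.7.3.1, whose processed intensity is background-subtracted and not scaled between arrays. A further set of deposited intensity values, which the authors had brought close to a common distribution (medians 163.3 to 164.1), served as an alternative. The flags used for dim, saturated and irregular spots are also those deposited.

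Outlier spots were left out, spots of a probe averaged, and log2 values taken relative to the array 75th percentile over 56605 probes. Probes that cleared the background flag throughout 1 or more groups were kept (37647), and RefSeq accessions named 32994 of all probes. The brightest probe stood for a gene, which gave 16843 genes. A single fit of the 3 groups was made with limma 3.58.1 (R 4.3.3, with data.table at version 1.17.8), with two-sided tests, Benjamini-Hochberg adjustment over all genes in each of 3 comparisons, and a threshold of 0.05. The number of arrays limits the precision. The fit was tested on simulated data. A summed level is log2 of the summed intensities of a list. Slides come from the file headers, and sex was read from Ddx3y, Eif2s3y, Kdm5d and Uty.

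The 35 genes, the gene lists and the alternatives were chosen with earlier results of these data known. Array values are given for genes called in a comparison and for Trp53, Mdm2, Ccng1 and Bax. Uncalled genes are named when among the 5 largest differences of a comparison, when their probes disagree, or with their role, and lists by up to 4 called genes. Not every gene taken in by this rule is reported here. Alternatives were normexp with an offset of 50, quantile and median scaling, the deposited values, other filters and probe rules, slide, sex and replicate number as terms, single slides, 2 groups alone and each array left out. The 75th percentile over spots was added after seeing the data.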

Additional observations from a re-analysis of the deposited data

Results flagged for a closer look

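In 2 genes the 9-month and 3-month cre lungs differed from each other in the direct limma test. Pmaip1 was higher at 9 months by 0.926 on the log2 scale (adjusted p = 0.0264), in 3 of 3 arrays above all 3-month arrays. Cd80 was higher by 0.858 (adjusted p = 0.0403), also in 3 of 3 arrays. These cre groups differ in age as well as in months of tamoxifen, and those cannot be told apart here. No group had enough arrays for a check of single outlying arrays.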

How the results depend on the processing

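No result changed sign while called, and the 7 genes called at 9 months kept their sign in all 22 alternatives. Gdf15 kept its 9-month call in 20 of them, Pmaip1 in 17, Pltp in 13, Psrc1 in 12 and Fas, Rps27l and Phlda3 in 6 each. At 9 months against control the counts higher and lower of the 35 genes, 6 and 1 as reported, were 2 and 0 with no filter on dim probes, 0 and 0 with the slide as a fixed block and again with sex as a covariate, 12 and 2 with the slide as a random block (consensus correlation -0.10), and 1 and 0 with the 2 groups alone. Scaling to the array median gave 3 higher, and the median was then 0.18, against 0.31 with the slide block and 0.35 with sex. At 3 months the 1 call was 0 with no filter, with the slide block, within slide 1 and with sex, and 2 with the 2 groups alone, and the median was 0.02 with quantile normalization (0.021) and with the deposited values (0.025). Between the cre groups the 2 higher were 1 with median scaling (median -0.007), 4 with the deposited values, and 0 with no filter, with the slide block, within slide 2 and with the 2 groups alone, which called 1 lower, Dcxr. The mean of all probes called 1 lower, Ei24, with a median of 0.178. Same-numbered arrays did not deviate together (correlations -0.24 to 0.04), and the replicate block, which therefore pairs nothing, gave 1 higher and 1 lower at 9 months, 1 higher at 3 months and 0 higher between the cre groups. Over all genes the rises and falls at 9 months, 614 and 473, were 201 and 116 with it, 280 and 209 with no filter, 440 and 321 with median scaling, 1912 and 1619 with the slide as a random block, 127 and 58 with the 2 groups alone and 0 and 0 with the slide as a fixed block or with sex, and more fell than rose with quantile normalization (536 and 587) and the deposited values (555 and 655).

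Leaving out 1 array gave 1 to 8 higher and 0 to 1 lower at 9 months (medians 0.21 to 0.30), fewest without control replicate 2 and most without 9-month cre replicate 2, 0 to 2 higher and 0 lower at 3 months (medians 0.07 to 0.14), and 0 to 5 higher and 0 to 2 lower between the cre groups (medians 0.057 to 0.232). The cause of these changes was not tested. Signal over background did not limit the tested probes of the 35 genes, which were well above background on every array.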

Other observations

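Genes of the ATF4 and CHOP stress response, which share Sesn2 with the p53 targets, were counted for the same lungs. Of 19 measured, 2 rose at 9 months against control and 0 fell, beside 3.65% and 2.81% of all genes. The median was 0.23 for the 19 and 0.02 for all genes. Cebpb, a transcription factor of inflammation and stress, rose by 0.84 ± 0.13 (limma adjusted p = 0.0163) and was also higher than in 3-month cre lungs, by 0.77. Slc7a11, the cystine transporter that p53 is known to repress, was the other of the 2. It was not well above background in controls and was at least 3.29-fold higher at 9 months. It passed the filter on dim probes only through the cre groups, where it was high, so its place in this count is a description only. Atf4 and Ddit3, which encode ATF4 and CHOP, stood at 0.25 ± 0.15 and -0.30 ± 0.15 and were not called.

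Markers of other cell types were counted in the same lungs at 9 months against control, where 3.65% of all genes were called higher and 2.81% lower. Of 13 neutrophil markers 4 rose, Camp by 4.91 ± 0.79 (limma adjusted p = 0.0182), and their summed level was 6.86 to 7.82 in controls and 7.65 to 8.90 in 9-month cre lungs. Ngp, another of the 4, was at least 21.2-fold higher, but it passed the filter on dim probes only through the cre groups. Of 9 fibroblast markers 4 fell, Npnt by 1.23 ± 0.27 most (adjusted p = 0.0355). Of 12 lymphocyte markers 3 fell, Klrb1c, Gzma and Ncr1, which are genes of natural killer cells. Ncr1 passed that filter only through the controls, where it was highest. Kdr was the 1 of 8 endothelial markers that fell, with 4 of the 8 above 0, and Myh7 the 1 of 12 heart muscle markers. None of 9 alveolar type 1 markers (3 at unadjusted p under 0.05 in limma) or 8 club and ciliated markers (0) was called.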
